A study of Mus musculus with 2 samples.

Results

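Transcripts of 8 genes that mark white or brown adipocytes were read in total RNA from heart, out of 55536 annotated genes in the tables. They are Adipoq, Plin1, Cfd, Retn, Ucp1, Cidea, Cidec and Prdm16. They were chosen by symbol, with their levels in these same libraries and the difference between those libraries already known, so every value below is a description and carries no test. The study holds 1 group of 2 libraries, from hearts of 2 separately numbered female mice of strain B6CASTF1/J, the first-generation cross of C57BL/6J and CAST/EiJ, aged 4 days. The labels give 1 donor record for both libraries, which are treated here as 2 animals. No treatment or mutation is named for either animal, no second group exists, and each library was made from 300 ng of RNA. Whole heart tissue was used, so a level mixes all cells of the dissected piece, and fewer cells of a type and less RNA per cell cannot be told apart.

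White adipocytes store triglyceride in 1 large droplet and secrete hormones such as adiponectin, whereas brown adipocytes hold many small droplets and many mitochondria and burn fat to make heat. The heat comes from UCP1, a carrier of the inner mitochondrial membrane that lets protons return without making ATP. Several of the genes used as adipocyte markers also serve other cells: heart muscle takes up and burns fatty acids and keeps small lipid droplets, and PRDM16 is a transcriptional regulator active in the developing heart. A marker name is therefore used here as a gene's name.

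Of the 8 genes, 3 reached 1 TPM (transcript abundance corrected for transcript length and library size) in both hearts, namely Cidea, Prdm16 and Ucp1, all of them known as brown adipocyte genes. Among protein-coding genes that level was reached in both hearts by 54.2% of 22028, so 3 of 8 was not a high share. Plin1 and Adipoq, both known from white adipocytes, were above 1 TPM in replicate 1 and below it in replicate 2, and Cidec stood at 1.00 TPM in replicate 1 and 0.56 in replicate 2. Cfd was almost absent and Retn had no count in either library. The 2 libraries held 36175363 and 32509660 counts for replicates 1 and 2, so that a count of 0 allows up to 3 counts, or 0.0829 and 0.0923 CPM (counts scaled to library size alone).

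**Figure D1:**
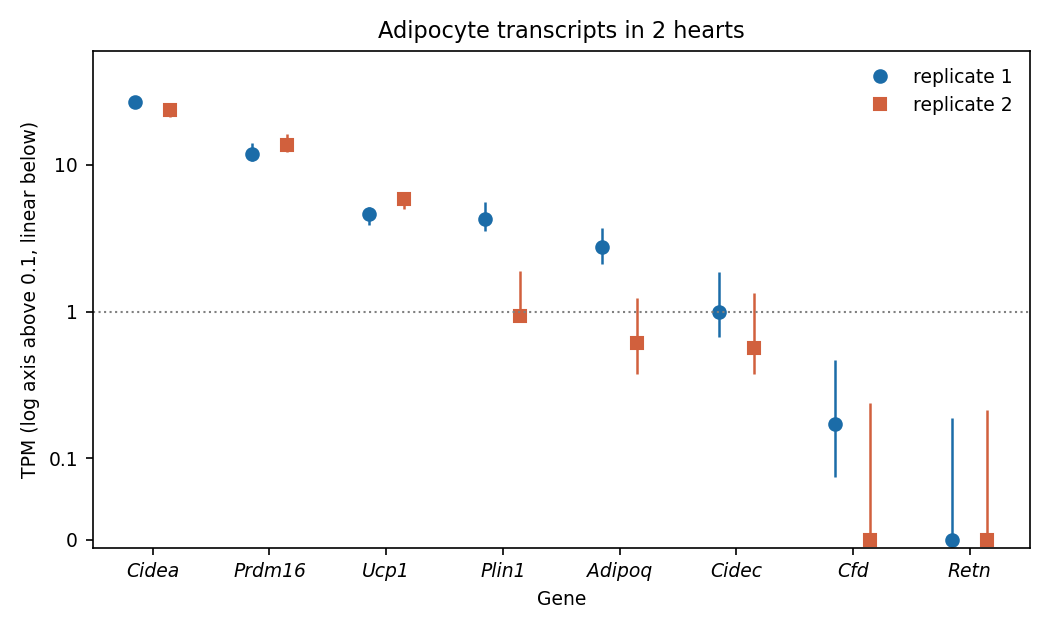
TPM of the 8 genes (vertical axis, logarithmic above 0.1 and linear below, with 1 TPM dotted) in replicate 1 (circles) and replicate 2 (squares), with the deposited credibility interval of each estimate as a bar. Cidea, Prdm16 and Ucp1 lie above 1 TPM in both hearts, Plin1 and Adipoq lie below it in replicate 2, and Cfd and Retn lie at or near 0. The bars are intervals around the deposited posterior mean, so a point need not lie at their middle.

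The stretches upstream of 4 of these genes are shown because the first pair was called between the hearts and the second pair was not. Each window is the 250 bases before the gene's RefSeq start on GRCm38.p6, 5′ to 3′ on the gene's strand, with matches to 6 short motifs on either strand in capitals. Of the Plin1 window only the 123 bases upstream of all annotated exons are printed. Adipoq (chr16:23146286-23146535, plus strand) and Plin1 (chr7:79732904-79733026, minus strand) come first, then Ucp1 (chr8:83290098-83290347, plus strand) and Prdm16 (chr4:154636874-154637123, minus strand).
Adipoq: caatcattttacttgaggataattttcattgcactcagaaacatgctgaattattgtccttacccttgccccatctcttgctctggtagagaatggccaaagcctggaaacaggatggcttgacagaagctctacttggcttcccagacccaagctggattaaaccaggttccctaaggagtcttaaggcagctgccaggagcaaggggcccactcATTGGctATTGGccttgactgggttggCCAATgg
Plin1: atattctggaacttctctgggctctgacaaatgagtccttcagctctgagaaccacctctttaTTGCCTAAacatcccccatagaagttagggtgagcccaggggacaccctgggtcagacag
Ucp1: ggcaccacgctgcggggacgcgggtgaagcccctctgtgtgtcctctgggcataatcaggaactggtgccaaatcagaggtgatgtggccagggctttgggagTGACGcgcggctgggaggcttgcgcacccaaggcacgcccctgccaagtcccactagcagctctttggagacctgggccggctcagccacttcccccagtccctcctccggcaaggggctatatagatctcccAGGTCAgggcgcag
Prdm16: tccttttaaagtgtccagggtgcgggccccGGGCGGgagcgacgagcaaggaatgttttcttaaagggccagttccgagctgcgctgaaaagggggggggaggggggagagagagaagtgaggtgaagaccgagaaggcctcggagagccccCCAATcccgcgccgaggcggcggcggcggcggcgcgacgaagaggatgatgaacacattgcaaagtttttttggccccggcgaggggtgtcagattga
The motifs searched were the TATA box as TATAAA, the CCAAT box, the GC box as GGGCGG, the nuclear receptor half-site as AGGTCA, the C/EBP sequence as TTGCNNAA and the cyclic AMP response element core as TGACG. No 2 matches overlapped in these windows. The Adipoq window held CCAAT 3 times, 2 of them on the opposite strand, all within 34 bases of the start. The Plin1 window held TTGCNNAA 2 times, 187 and 58 bases before the start, of which the first is in the printed stretch. The Ucp1 window held TGACG 147 bases and AGGTCA 14 bases before the start. The Prdm16 window held GGGCGG and CCAAT.

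Among 32851 windows of the same length, CCAAT was found in 33.8% and GGGCGG in 32.7%, while TGACG was found in 17.8%, AGGTCA in 14.02%, TATAAA in 12.4% and TTGCNNAA in 9.56%. A match is a description of the letters and neither a binding site nor a cause. The 4 windows differed in composition: Adipoq had 0 CpG dinucleotides and Plin1 had 1, against 12 for Ucp1 and 22 for Prdm16, with a median of 6 over all windows. RefSeq windows were found for 7 of the 8 genes, 8 windows in all because Cidec has a pair of starts. Of the remaining windows, 1 of the pair for Cidec held 1 TTGCNNAA, and those of Cfd and Retn held none of the 6 motifs. Cfd and Retn had 2 CpG dinucleotides each, and the Cidec pair had 6 and 4. These genes were too low to be tested between the hearts, so their windows cannot be set beside a call.

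Adipoq (chr16:23146536-23158028, plus strand, mm10) encodes adiponectin, the hormone that fat cells secrete in large amounts. It was counted 81 times in replicate 1 and 16 times in replicate 2, that is 2.76 and 0.61 TPM, with a mean of 1.69 ± 1.52 TPM (SD, n = 2). Replicate 1 was the high heart, and the 95% Poisson intervals of the counts, 64.3 to 101 and 9.15 to 26.0, do not overlap. The log2 ratio of replicate 2 over replicate 1 was -2.20, with an exact counting interval from -3.10 to -1.45, or 4.59-fold more in replicate 1.

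The genes through which adiponectin acts lay close between the hearts. ADIPOR1 and ADIPOR2 are its receptors and T-cadherin, from Cdh13, binds it at the cell surface. Cdh13 stood at 79.0 and 80.3 TPM, Adipor1 at 57.6 and 55.4 TPM and Adipor2 at 24.7 and 25.4 TPM in replicates 1 and 2. Of 12 listed receptors, adaptors, chaperones and related proteins, 11 reached 1 TPM in both hearts, and of the 11 tested 4 were lower and 7 higher in replicate 2 with none called. The adiponectin message was thus 20.9 times below that of Adipor1 in replicate 1 and 90.9 times below it in replicate 2 on the TPM scale.

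Cfd (chr10:79890853-79892655, plus strand) encodes adipsin, the protease that starts the alternative complement pathway and a product of mature fat cells. It had 4 counts in replicate 1 and 0 in replicate 2, or 0.17 and 0 TPM. The 95% Poisson interval of the 4 counts, 1.09 to 10.2, overlaps that of the count of 0, which reaches 3.69. At this depth no difference was detectable. The gene for C3, the central protein that the pathway cleaves, stood at 35.3 and 21.7 TPM, with a log2 ratio of -0.79 that stayed short of the 2-fold used for a call. Of 12 listed genes of the pathway, 5 reached 1 TPM in both hearts with none called.

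Retn (chr8:3655770-3660110, plus strand) encodes resistin, a peptide that mouse fat cells secrete. Its count was 0 in both libraries, which allows up to 3 counts in each. The second deposited quantification of the same libraries assigned it 10.4 and 5.38 estimated counts, 0.759 and 0.439 TPM, so the files differ on whether any read belonged to it. Of the other resistin family genes, Retnlb had 0 counts in both libraries and Retnla 0 and 1, while Retnlg had 9 and 7, and 0 of the 4 genes reached 1 TPM.

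Plin1 (chr7:79720218-79732903, minus strand) encodes perilipin 1, which coats the fat droplet and holds back lipolysis until it is phosphorylated. It had 198 counts in replicate 1 and 51 in replicate 2, or 4.26 and 0.93 TPM, with a mean of 2.60 ± 2.35 TPM (SD, n = 2). As for Adipoq, replicate 1 was the high heart, and the count intervals, 171 to 228 and 38.0 to 67.1, are far apart. The log2 ratio was -1.84, interval -2.32 to -1.40, which is 3.58-fold by counts and 4.58-fold by TPM. The 2 sizes differ because the deposited effective length of the gene was 1654 bases in replicate 1 and 2223 in replicate 2, a matter of which Plin1 transcripts were credited with the reads.

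The 4 other perilipins, which coat droplets in many tissues, lay close between the hearts. Plin2 stood at 44.2 and 49.1 TPM, Plin4 at 31.7 and 33.8 TPM, Plin3 at 29.1 and 26.1 TPM and Plin5, the form of oxidative tissues, at 27.3 and 28.8 TPM. Their log2 ratios lay between -0.01 and 0.02. Plin1 was the lowest of the 5 in both hearts, 6.41 times below Plin5 in replicate 1 and 30.9 times below it in replicate 2.

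Cidec (chr6:113424634-113435760, minus strand) encodes the protein that fuses small droplets into a large one in white fat. It had 31 counts in replicate 1 and 15 in replicate 2, or 1.00 and 0.56 TPM, with a mean of 0.78 ± 0.31 TPM (SD, n = 2). Replicate 1 was again the higher, but the count intervals, 21.1 to 44.0 and 8.40 to 24.7, overlap. The log2 ratio of -0.92 has an interval from -1.93 to -0.01, and the mean was below the 1 TPM needed for the gene to be tested.

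Cidea (chr18:67343604-67367785, plus strand), a relative of Cidec that enlarges droplets in brown fat, was the highest of the 8 genes. Its counts were 766 and 590 in replicates 1 and 2, or 26.9 and 23.7 TPM, with a mean of 25.3 ± 2.27 TPM (SD, n = 2). The hearts lay close together: the log2 ratio was -0.27, interval -0.42 to -0.11. Cidea stood above 86.3% and 83.6% of protein-coding genes in the 2 libraries, and the protein-coding genes nearest to it in level were Wdr83os (27.1 and 23.5 TPM) and Litaf (26.8 and 24.0 TPM). The third gene of the family, Cideb, known from liver and intestine, stood at 0.54 and 0.72 TPM, so Cidea exceeded it 49.7 times in replicate 1 and 32.8 times in replicate 2.

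Ucp1 (chr8:83290352-83298452, plus strand) is the gene that most defines brown fat. It had 198 counts in replicate 1 and 222 in replicate 2, or 4.59 and 5.88 TPM, with a mean of 5.24 ± 0.91 TPM (SD, n = 2). The count intervals, 171 to 228 and 194 to 253, overlap, and the log2 ratio of 0.27 has an interval from -0.01 to 0.56 that includes equality, though it left equality out under 3 of the 8 alternatives, as given with the other settings. Ucp1 and Plin1 had the same count, 198, in replicate 1, where Ucp1 was 1.08 times Plin1 by TPM. In replicate 2 Ucp1 was 6.32 times Plin1 by TPM, on 222 counts beside 51. There Plin1 was lower, with a longer effective length, and Ucp1 slightly higher.

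Other carriers related to UCP1 were present at various levels and likewise close between the hearts. Ucp2, the widespread form, stood at 150 and 155 TPM, 32.7 and 26.4 times Ucp1. Ucp3, the form of skeletal and heart muscle, stood at 6.73 and 8.29 TPM, 1.47 and 1.41 times Ucp1. All 6 listed carriers of this family reached 1 TPM in both hearts and none was called.

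Prdm16 (chr4:154316125-154636873, minus strand) encodes a zinc finger regulator that sets brown over muscle identity in brown fat precursors and is also needed in the heart. It had 1309 counts in replicate 1 and 1370 in replicate 2, or 11.9 and 13.8 TPM, with a mean of 12.8 ± 1.32 TPM (SD, n = 2). The hearts were alike to within 1.13-fold: the log2 ratio was 0.17, interval 0.06 to 0.29. Its nearest relative Mecom stood at 13.97 and 15.8 TPM, Prdm11 at 11.3 and 11.4 TPM and Prdm2 at 10.4 and 11.0 TPM. Of 15 PRDM genes, 10 reached 1 TPM in both hearts, and Prdm12 and Prdm13 had 0 counts in both.

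Genes listed as working with or around PRDM16, here called partners whether or not the proteins bind, had transcripts in both hearts. All 12 listed partners reached 1 TPM in both hearts, led by the corepressor gene Ctbp1 at 117 and 130 TPM, the coactivator gene Ppargc1a at 58.7 and 57.5 TPM and its relative Ppargc1b at 35.41 and 34.99 TPM. Ehmt1, a histone methyltransferase that works with PRDM16, stood at 29.0 and 33.7 TPM. Of these 12, 6 were lower and 6 higher in replicate 2, and none was called.

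In order of mean TPM the genes ran Cidea, Prdm16, Ucp1, Plin1, Adipoq, Cidec, Cfd, Retn. Neighbours from Cidea down to Plin1 had separate ranges over the 2 hearts, as had Cidec and Cfd, though Ucp1 and Plin1 were close in replicate 1. Adipoq and Cidec, and Cfd and Retn, had overlapping ranges and did not differ beyond their spread. The ranges of Plin1 and Adipoq over the hearts also overlapped, but within each heart Plin1 was the higher, by 1.54 and 1.52 times in replicates 1 and 2. By contrast, Ucp1 was 1.66 and 9.64 times Adipoq. The 5 adipokine and droplet coat genes (Adipoq, Plin1, Cfd, Retn and Cidec) summed to 8.19 and 2.10 TPM. The 3 genes listed for brown adipocytes (Ucp1, Cidea and Prdm16) summed to 43.3 in both hearts. These groups are groups of names, and their sums do not measure white against brown fat.

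Between the hearts, 13598 genes had a mean of at least 1 TPM and a summed count of at least 20, and a gene was called when it differed by at least 2-fold with a counting interval that left out equality. By that rule 74 genes, 0.544% of those tested, were lower in replicate 2 and 44, or 0.324%, were higher. Of the 8 genes 5 were tested, and 2 of those, Adipoq and Plin1, were called lower while 0 were called higher. Since both were known to differ when the genes were chosen, the count is not read against that share. Adipoq held rank 28 and Plin1 rank 34 from the lowest ratio, Cidea rank 841, and Prdm16 and Ucp1 ranks 11891 and 12724. Over all tested genes the central 95% of log2 ratios ran from -0.46 to 0.44, which contains Cidea, Prdm16 and Ucp1. With 2 libraries of 1 group no p-value can be given, since each heart is a single library without a replicate of its own.

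**Figure D2:**
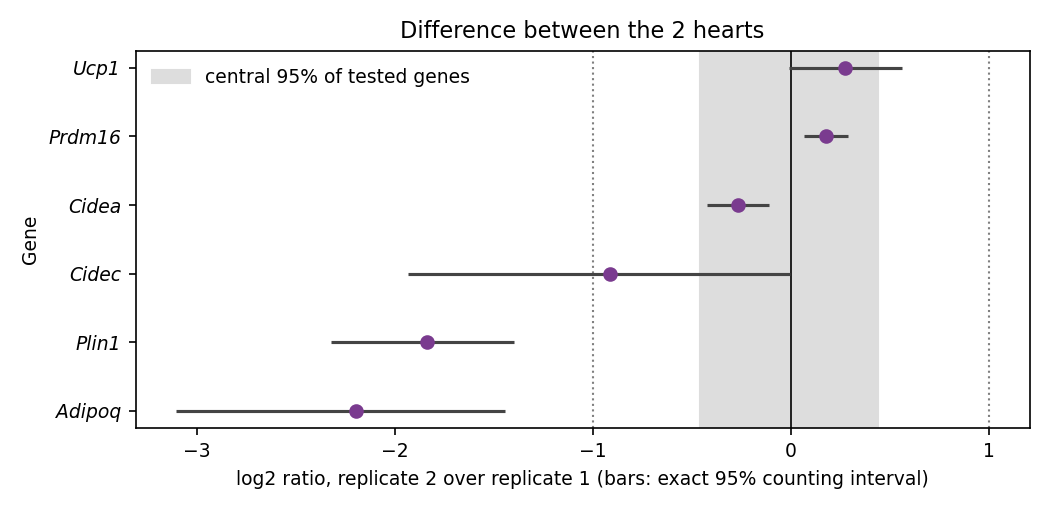
Log2 ratio of replicate 2 over replicate 1 (horizontal axis) for the 6 genes with at least 20 counts in all, with exact 95% counting intervals as bars, the central 95% of all tested genes shaded and the 2-fold limits dotted. Adipoq at -2.20 and Plin1 at -1.84 lie beyond the 2-fold limit with their whole intervals, Cidec at -0.92 has an interval that nearly reaches equality, and Cidea, Prdm16 and Ucp1 lie in the shaded range.

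The tables' second quantification gave the same 2 calls among the 8 genes, beside 0.609% of its tested genes called lower in replicate 2. Its TPM was 39.7 and 34.9 for Cidea, 15.2 and 16.9 for Prdm16, 5.10 and 6.69 for Ucp1, 6.26 and 1.81 for Plin1, and 4.22 and 1.28 for Adipoq in replicates 1 and 2. With it Plin1 and Adipoq also passed 1 TPM in both hearts, and Plin1 was above Ucp1 in replicate 1. Levels were higher in general in that quantification, with a median log2 ratio of second to first of 0.38 and 0.37 over 11917 genes. Adipoq in replicate 2, at 1.07, and Plin1 in replicate 2, at 0.96, stood near the upper end of the central 95%, which reached 1.10 in both libraries.

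**Figure D3:**
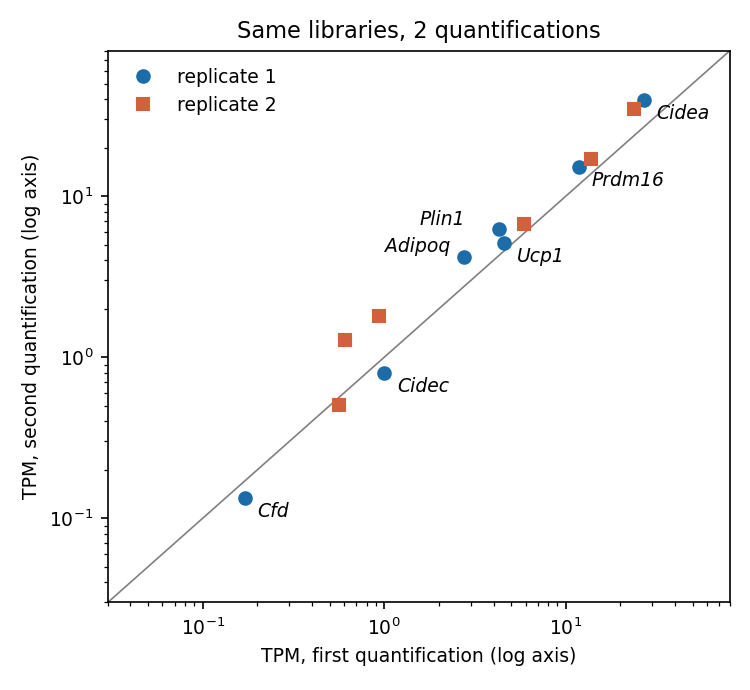
TPM by the first quantification (horizontal axis, logarithmic) and by the second (vertical axis, logarithmic) for each gene above 0 in both, in replicate 1 (circles, named) and replicate 2 (squares), with the line of equality. Cidea, Prdm16, Ucp1, Plin1 and Adipoq lie above the line in both hearts, and Cidec and Cfd lie below it.

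Other white adipocyte genes mostly lay close between the hearts. Apart from the 5 described, 21 genes were listed, of which 19 reached 1 TPM in both hearts and 19 were tested, 10 lower and 9 higher in replicate 2, with a median log2 ratio of -0.002 beside -0.003 over all genes tested. Of these 1 was called: Car3, a carbonic anhydrase abundant in fat and also in slow skeletal muscle, stood at 20.2 TPM in replicate 1 and 6.75 TPM in replicate 2, a log2 ratio of -1.66. The next lowest was Pck1, at 2.40 and 1.54 TPM, with a log2 ratio of -0.71 (interval -1.10 to -0.33) that stayed short of a call. Intervals also left out equality on the low side for Cebpa, Gpd1, Lipe and Pnpla2, and on the high side for Fabp4 and Gpam. The list's most abundant genes were shared with other tissues, with Fabp4, a fatty acid carrier also made by endothelium, at 368 and 408 TPM and the lipase gene Lpl at 322 and 336 TPM. Of the 7 genes kept as white adipocyte markers, Lep, the hormone leptin, had 5 and 0 counts, while Pparg stood at 3.39 and 3.68 TPM, Lipe at 10.01 and 7.99 TPM and Plin4 as given above.

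The brown adipocyte markers were split between genes at moderate level and genes near 0. Beside Cidea, Prdm16 and Ucp1, Ebf2 stood at 4.22 and 4.74 TPM and Slc36a2 at 1.65 and 1.23 TPM. Elovl3, a fatty acid elongase of active brown fat, had 0 and 1 counts, and Zic1, a regulator that marks classical brown fat, had 1 and 5. Lhx8 had 1 and 0 counts, and Adrb3, the receptor through which noradrenaline activates fat, had 4 and 1. So 4 of 9 markers stood at 5 counts or fewer in each heart. These 9, and the 7 for white adipocytes, are a narrower choice from full lists on which 15 of 24 brown and 19 of 26 white adipocyte genes reached 1 TPM in both hearts. The lists thus mix abundant genes with genes at or near 0, among them Retn, Cfd and Lep, and the genes are called here by their symbols.

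Of the 21 other brown adipocyte genes on the full list, 12 reached 1 TPM in both hearts. They included the muscle-type cytochrome oxidase genes Cox8b at 458 and 528 TPM and Cox7a1 at 307 and 310 TPM, the potassium channel gene Kcnk3 at 64.1 and 59.7 TPM and Ppargc1a as above, all of which heart muscle also expresses. Among the 12 tested, 5 were lower and 7 higher in replicate 2, none was called and the median log2 ratio was 0.04. Bmp8b had 0 counts in both hearts. Of 10 genes listed for beige adipocytes, the heat-making cells that arise within white fat, 3 reached 1 TPM in both hearts, and Hoxc9 had 0 counts in both.

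The machinery around these genes was present in both hearts. Of 19 adipogenic factors 17 reached 1 TPM in both, and none was called. The highest of them were Dlk1, a brake on fat cell formation, at 29.3 and 21.7 TPM and the coactivator gene Med1 at 21.5 and 22.9 TPM. Of 18 droplet and lipolysis genes 17 did so, including Mgll, the monoglyceride lipase, at 61.4 and 66.0 TPM, Fitm1 at 54.3 and 53.6 TPM and Pnpla2, the first lipase of the pathway, at 52.5 TPM in both, and 11 were lower and 6 higher with none called. Of 13 genes of the beta-adrenergic input to heat production 10 reached 1 TPM in both hearts, led by Gnas at 795 and 854 TPM and Prkaca at 172 and 174 TPM. Adrb1, the main beta receptor of heart muscle, stood at 13.5 and 14.3 TPM.

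Skeletal muscle, erythroid and most epicardial and mesothelial markers moved between the hearts in the same direction as Adipoq and Plin1, and immune cell markers did not. Of 18 skeletal muscle genes, 6 were tested, and all 6 were lower in replicate 2 and called, among them Tnnc2 (4.80 and 0.07 TPM), Mylpf (14.6 and 1.23 TPM) and Atp2a1 (4.00 and 0.30 TPM), and the list's summed level was 47.6 and 7.39 TPM. The muscle genes at 0 in replicate 2 were Myh4, Myod1, Myf6 and Pax7, with 57.2, 1, 3 and 1 counts in replicate 1. Of 8 erythroid genes, 6 were tested, and all 6 were lower and called, with sums of 17279 and 221 TPM. Of 13 epicardial and mesothelial genes, 12 were lower in replicate 2, with a median log2 ratio of -0.62 and sums of 129 and 106 TPM, and 1, Krt19, was called. Endothelial, cardiomyocyte and fibroblast lists had medians of -0.05, -0.06 and 0.02 with none called. Macrophage genes were higher in 9 of 10 tested, with none called. Neutrophil genes were higher in all 5 tested, with a median of 0.37 and none called. No thymus and lymphoid gene reached 1 TPM in both hearts, and that list summed to 2.23 and 4.57 TPM. The part of any of these in the Adipoq and Plin1 difference was not tested. Over 2 libraries it cannot be told apart from anything else in which the hearts differ.

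**Figure D4:**
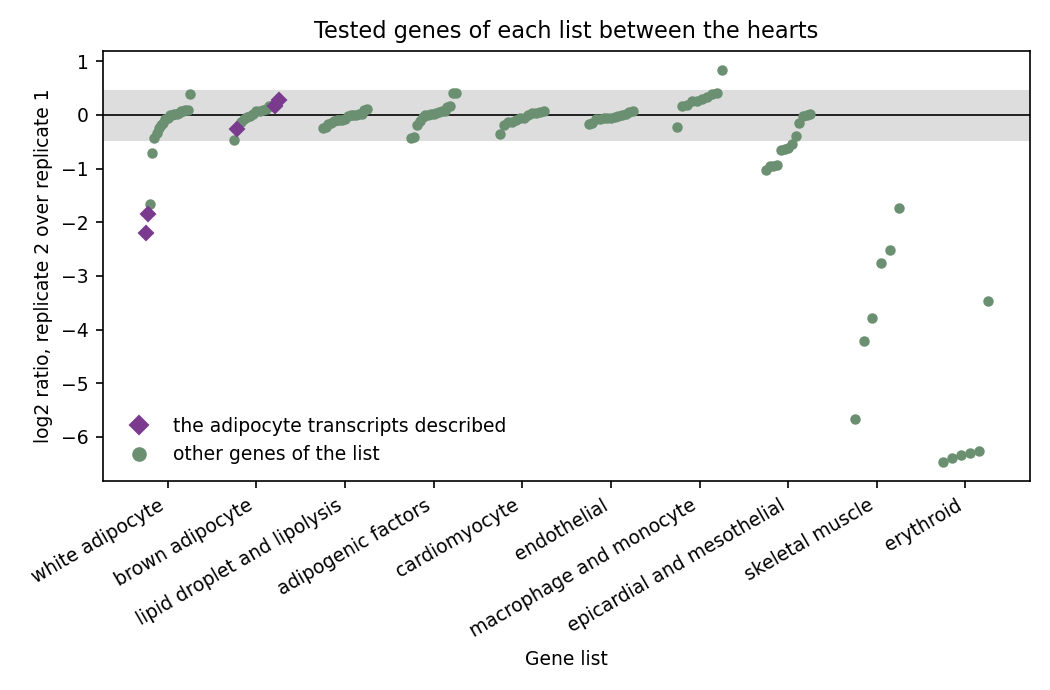
Log2 ratio of replicate 2 over replicate 1 (vertical axis) for every tested gene of 10 lists (horizontal axis), with the genes described here as diamonds, other genes as circles and the central 95% of all tested genes shaded. In the white adipocyte list Adipoq, Plin1 and Car3 lie apart near -2, the skeletal muscle and erythroid genes lie lower or as low, and the brown adipocyte list stays close to 0.

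The genes nearest in level were picked by their values in both hearts, so a like split between the hearts follows from the choice. By distance of log2 TPM, Adipoq was closest to Gm2004 (2.33 and 0.63 TPM) and Isg20 (2.85 and 0.50 TPM), and Plin1 to 2210418O10Rik (4.36 and 1.16 TPM) and Tnnt3, a fast skeletal muscle troponin gene (4.84 and 1.41 TPM). For Ucp1 the nearest were Adamts3 (4.63 and 5.88 TPM) and Ccl21a (4.62 and 5.95 TPM), and for Prdm16 they were Parp2 (11.9 and 13.7 TPM) and Yipf5 (12.0 and 13.7 TPM). The distances were 0.25 and 0.29 for Adipoq and 0.32 and 0.63 for Plin1, so Tnnt3 was not close. They were 0.013 and 0.019 for Ucp1 and 0.007 and 0.009 for Prdm16. With 2 libraries such nearness means a like pair of values and no more.

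The transcript tables show which forms of the genes carried the reads. Ucp1 and Cidea have 1 annotated transcript each. In the 4 genes with several transcripts and counts in both hearts, the leading transcript by counts was the same in both: Adipoq-201 with 91.7% and 93.5% of the gene's counts, Cidec-201 with 85.3% and 90.4%, Plin1-206 with 59.4% and 68.9%, and Prdm16-202 with 79.2% and 76.2%. For Plin1 the rest lay mainly on Plin1-201, at 51.1 and 14.8 counts, and on the short Plin1-205, at 18.5 and 1.01 counts. The division among forms depended on the quantification. The second put Cidec-202 first in replicate 2 by counts and gave Adipoq-201 86.5% and 79.5% of its gene's counts. By TPM it put Adipoq-202 first in replicate 2, with 54.6%, and Plin1-205 first in replicate 1, with 36.1%.

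Prdm16 has 7 long annotated transcripts, and most of its reads were assigned to a form without exon 16 of the 17 exons of Prdm16-201. That exon, 175 coding bases at chr4:154322271-154322445 on the minus strand, is present in 5 of the long transcripts and absent from 2. It is shown because most reads went to the form that skips it. Its sequence is given first in capitals between 20 bases of each neighbouring exon, then as the junction of that form, both from the GENCODE transcripts of mm10. The forms also differ by a few bases at the edges of other exons.
Prdm16-201: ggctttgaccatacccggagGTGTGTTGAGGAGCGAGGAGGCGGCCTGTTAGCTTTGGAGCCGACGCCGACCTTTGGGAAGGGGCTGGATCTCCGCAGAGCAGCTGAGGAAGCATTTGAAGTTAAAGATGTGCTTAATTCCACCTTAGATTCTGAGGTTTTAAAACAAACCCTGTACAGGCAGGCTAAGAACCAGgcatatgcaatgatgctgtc
Prdm16-202: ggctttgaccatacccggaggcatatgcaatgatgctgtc
The long transcripts without the exon received 1037 counts in replicate 1 and 1044 in replicate 2, and those with it 159 and 222. The skipping form was thus 86.7% and 82.5% of the long transcripts' counts, and 77.6% and 74.6% by the second quantification. Prdm16-202 encodes 1178 codons (3534 coding bases) and Prdm16-201 1275 codons (3825 coding bases). The 175 bases of the exon are not a whole number of codons, and their length alone does not account for that difference.

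How the reads divided among individual long Prdm16 forms was not well determined. Without the exon, Prdm16-204 had 0 counts in both hearts with deposited posterior SDs of 66.25 and 30.77 counts, and Prdm16-202 had SDs of 84.5 and 67.6. With the exon, Prdm16-201 had 127 and 110 counts, and Prdm16-206, which differs from it by a few bases, had 0 and 112, with deposited posterior SDs of 35.3 and 51.7 counts. By TPM, which weighs each form by its length, the picture differs again: Prdm16-202 made up 37.3% and 37.1% of the gene's level, and the 757-base Prdm16-207, an annotated short form, 34.97% and 27.83% on only 76.7 and 61.8 counts. The gene's own count has a posterior SD of 0 in both libraries, as do those of the other 7 genes, so the first quantification gave no spread to the division of their reads with other genes. On the opposite strand Prdm16 overlaps B230104I21Rik over 109 exon bases, but that gene had 0 and 2 counts. The gene opposite Cidea, B430212C06Rik, shares 0 exon bases with it.

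**Figure D5:**
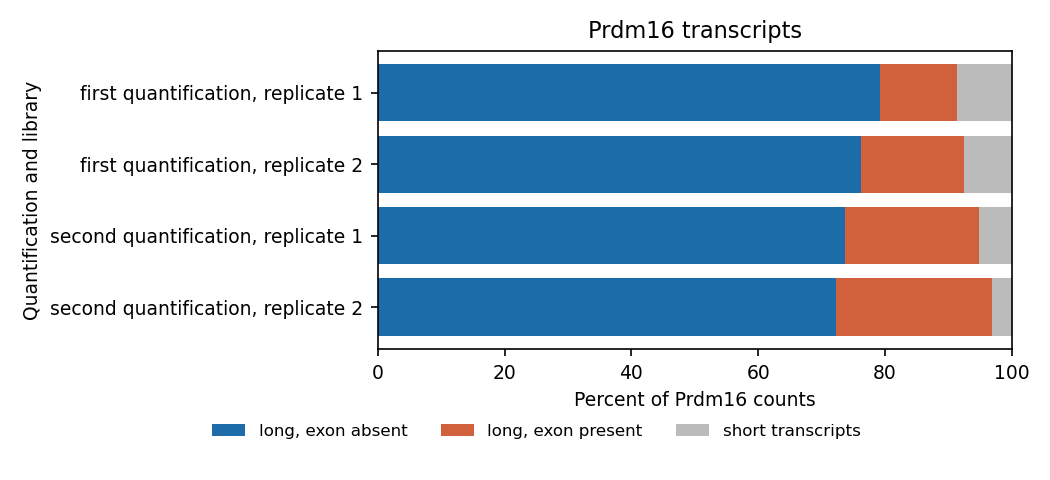
Percent of Prdm16 counts (horizontal axis) on long transcripts without the alternative exon, on long transcripts with it and on short transcripts, for the 2 quantifications and the 2 replicates (bars). The form without the exon holds 79.2% and 76.2% of counts in the first quantification and 73.6% and 72.3% in the second.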

How the data were processed

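Total RNA-seq was made from 2 mouse hearts, stranded and ribosomal RNA reduced with ERCC spikes, per the labels. The authors deposited, per library, a gene table and a transcript table with expected counts, TPM, percent of each transcript in its gene, and posterior means, SDs and credibility bounds of the TPM (kept as signal values), and a second transcript table with estimated counts and TPM, on mm10 with GENCODE M21, per the file headers. Which programs made them is not given in the sources used here. Sums over genes gave 36175363 and 32509660 counts, of which ERCC spikes held 210562 and 177936.

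Expected counts were rounded, normalised with edgeR's TMM factors (version 4.0.16 under R 4.3.3) and set side by side as a log2 ratio with prior count 0.5 and an exact Clopper-Pearson interval, in Python 3.11.15 with scipy 1.17.1. These intervals and the limit of 3 counts cover counting error only. DESeq2 1.42.0 size factors, total counts, spikes, other priors and thresholds, no filter, posterior means, the second table and each library alone were alternatives. The labels number the animals separately but give 1 donor record for both.

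Named were the 8 genes, their close relatives, up to 4 genes of each list by mean TPM, genes called or at 0, the cell type markers, and the 2 nearest genes in level. The 8 genes and the 23 lists were chosen with earlier results of these data known. The promoter windows are RefSeq's. Expression of protein was not analysed here.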

Additional observations from a re-analysis of the deposited data

How the results depend on the processing

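No between-heart ratio of the 6 genes with at least 20 counts changed direction or call in any of its 8 alternatives (other scalings, priors, filter and quantification). The range was -2.22 to -1.98 for Adipoq, -1.85 to -1.56 for Plin1, -0.93 to -0.69 for Cidec, -0.27 to -0.13 for Cidea, 0.15 to 0.31 for Prdm16 and 0.27 to 0.41 for Ucp1, and 2 genes were called each time. The Ucp1 interval left out equality with total counts (0.04 to 0.60), spikes (0.13 to 0.69) and the second quantification (0.02 to 0.62). Under those same settings, in that order, the Cidec interval took in equality (-1.89 to 0.04, -1.80 to 0.13 and -1.69 to 0.23). The Cidea interval took it in with spikes only (-0.29 to 0.02). The number of the 8 genes at the minimum level in both hearts, 3 at 1 TPM, did depend on the setting. It was 6 at 0.1 TPM, 6 at 0.5 TPM, 2 at 5 TPM, 4 by posterior mean TPM and 5 by the second quantification, and leaving out 1 library gave 3 to 6, the 6 being without replicate 2. By the second quantification the levels of Cidea (37.3 TPM) and Prdm16 (16.1) moved by more than the spread of the hearts. Retn had 0 TPM in both hearts and so no spread to be set against. It stood at 0.599 TPM by the second quantification and 0.085 by posterior mean. In CPM, without length scaling, Prdm16 was 39.2, Cidea 19.7 and Ucp1 6.15. Scaling by the spikes moved the median of all genes by 0.13 on the log2 scale. No paired analysis was possible because there is 1 group. Depth limits Cfd, Retn and Cidec, whose summed counts were 4, 0 and 46.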
